A study of Mus musculus with 24 samples.

Results

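The Wnt genes described here were 47 protein-coding genes chosen by symbol from the 35191 genes counted in mouse pituitary RNA. They took in each gene named Wnt, Fzd, Dkk or Rspo with a number, each Sfrp gene, and Frzb, Wif1, Axin2, Lef1, Tcf7, Tcf7l1 and Tcf7l2. By role they were 19 Wnt ligands, 10 Frizzled receptors, 3 Dickkopf genes, 6 secreted Wnt binders (Sfrp genes, Frzb and Wif1), 4 R-spondins, and 5 genes of the nuclear output, namely Axin2 and the Lef/Tcf factors. Dkk4 is not analysed here. Of the 47 genes, 39 passed edgeR's filter on low counts, as did 21927 genes of the whole table.

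Polyadenylated RNA was sequenced from 24 pituitary samples, 3 for each of 8 groups that combine 4 genotypes with both sexes. Egr1cKO mice carry floxed Egr1 with Cre, labelled FF (+), and their Egr1cKO controls carry floxed Egr1 without Cre, labelled FF (-). Cre controls carry Cre with unfloxed Egr1, labelled wt (+), and wild types carry neither, labelled wt (-). The protein of Egr1 is a zinc-finger transcription factor made rapidly after stimulation, and Egr1cKO names its conditional knockout. The sources used here do not give the Cre driver, the cells it acts in, the ages of the mice or whether samples were pooled. Cre is thus shared by Egr1cKO and Cre control, and the floxed allele by Egr1cKO and Egr1cKO control. The titles number floxed and unfloxed libraries in separate series, so floxing and series cannot be told apart.

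Wnt proteins are secreted ligands that bind Frizzled receptors on the cell surface. In the canonical branch, binding with an LRP coreceptor stabilises beta-catenin, which enters the nucleus and acts through Lef/Tcf factors on targets such as Axin2, itself a feedback inhibitor. Some Dickkopf proteins, such as Dkk1, block the LRP coreceptor, which is not implied here for the divergent Dkk3. Sfrp, Frzb and Wif1 proteins bind Wnts outside the cell, and R-spondins prolong the life of Frizzled receptors through LGR receptors. In the mouse pituitary, Wnt4, Wnt5a and Tcf7l2 act during development, and Axin2 is used as a reporter of canonical signalling in postnatal stem cells.

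Promoters are shown for 5 genes that differed between groups below: Rspo4 and Tcf7l2, which were called higher in Cre-carrying or female libraries, and Fzd4, Fzd7 and Sfrp5, which had lower levels in females. RefSeq on GRCm38.p6 gave a promoter for 34 of the 47 genes. Each run is the 250 bases before the RefSeq start, read 5′ to 3′ on the strand of the gene. Capitals mark matches, on either strand, to an EGR motif (GCGTGGGCG or GCGGGGGCG) or to a TCF/LEF motif (CTTTGNN with A or T at each N). The motifs do not overlap each other.
Rspo4, chr2:151842677-151842926, plus strand: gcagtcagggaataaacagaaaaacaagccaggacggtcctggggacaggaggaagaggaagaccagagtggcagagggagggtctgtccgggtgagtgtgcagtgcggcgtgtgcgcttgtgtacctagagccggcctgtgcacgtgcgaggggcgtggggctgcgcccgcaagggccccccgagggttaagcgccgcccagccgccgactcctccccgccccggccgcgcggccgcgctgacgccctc
Tcf7l2, chr19:55741560-55741809, plus strand: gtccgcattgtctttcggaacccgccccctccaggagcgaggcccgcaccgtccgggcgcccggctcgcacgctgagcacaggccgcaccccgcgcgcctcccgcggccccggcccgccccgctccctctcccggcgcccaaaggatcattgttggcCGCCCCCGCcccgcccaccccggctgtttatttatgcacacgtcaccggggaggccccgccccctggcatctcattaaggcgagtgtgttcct
Sfrp5, chr19:42202253-42202502, minus strand: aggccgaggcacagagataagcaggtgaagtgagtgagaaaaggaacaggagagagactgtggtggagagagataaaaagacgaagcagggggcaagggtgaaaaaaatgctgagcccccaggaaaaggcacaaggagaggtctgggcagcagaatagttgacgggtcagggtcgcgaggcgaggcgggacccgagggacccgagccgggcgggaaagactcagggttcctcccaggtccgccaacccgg
Fzd4, chr7:89404116-89404365, plus strand: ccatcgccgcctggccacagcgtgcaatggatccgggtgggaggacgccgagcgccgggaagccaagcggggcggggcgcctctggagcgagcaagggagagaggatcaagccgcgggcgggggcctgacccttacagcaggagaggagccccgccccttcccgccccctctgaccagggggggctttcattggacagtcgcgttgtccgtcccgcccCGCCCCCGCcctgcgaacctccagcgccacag
Fzd7, chr1:59481897-59482146, plus strand: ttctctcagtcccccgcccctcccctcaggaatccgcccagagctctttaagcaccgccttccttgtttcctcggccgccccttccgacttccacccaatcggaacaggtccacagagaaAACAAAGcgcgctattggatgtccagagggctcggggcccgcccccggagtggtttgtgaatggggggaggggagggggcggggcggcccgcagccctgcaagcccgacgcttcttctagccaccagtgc

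Fzd4 and Tcf7l2 each held 1 EGR match and Fzd7 held 1 TCF/LEF match, all 3 on the minus strand relative to the gene, and the promoters of Rspo4 and Sfrp5 held neither. Axin2, Dkk2, Fzd5 and Wnt9a were also called below, and their promoters, not printed here, held neither motif. The remaining EGR matches lay in Wnt2, Wnt6, Wif1 and Tcf7, which were not called below, and in Wnt3a and Wnt7a, which were not tested. An EGR match was present in 8 of the 34 promoters (23.5%), against 705 of 17492 protein-coding promoters of the same length (4.03%). A TCF/LEF match was present in 3 of the 34 (8.82%), against 2330 of the 17492 (13.3%). The median GC content was 70.2% for the 34 and 55.2% for protein-coding genes, and the EGR letters are all G and C but for 1 T in the GCGTGGGCG form. A match is a description of the letters and does not show binding.

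Total counts ran between 15486069 and 26255343 per library. Mitochondrial genes took 2.14% to 10.4% of counts in female libraries and 2.08% to 4.8% in male libraries. The mean share was 9.42% ± 0.872 in female Egr1cKO, against 4.9% ± 1.76 in female Egr1cKO control, and 6.08% ± 0.586 in female Cre control, against 4.98% ± 4.44 in female wild type (SD, n = 3 each). Female wild type replicate 1 stood apart at 10.1%, with 2.14% and 2.7% in the other wild type females. Levels below are CPM, counts scaled to library size. Egr1 itself had 7.55 to 162 CPM in female Egr1cKO, against 9.79 to 34.2 CPM in female Egr1cKO control, and 58.3 to 238 CPM in male Egr1cKO, against 22.7 to 51.1 CPM in male Egr1cKO control. The female groups overlapped, and each male knockout library lay above each male control library. The log2 fold change was positive in females (1.83, SE 1.26, adjusted p = 0.468 by edgeR) and in males (1.79, SE 1.25, adjusted p = 0.886). Egr1 counts were thus not lower in the knockout libraries than in Egr1cKO control. Cre control, which also carries Cre, had 61.7 to 486 CPM in females (median 94.8, against 26.6 in Egr1cKO). In males it had 25.3 to 486 CPM (median 74.3, against 105 in Egr1cKO). These groups overlapped in both sexes, and Egr1cKO was not tested against Cre control directly. A whole-gene count does not test the loss of an exon. Endocrine markers of the pituitary were detected in each group. Nothing beyond the title numbers shows that libraries came from separate animals, so the p-values reflect the spread among these samples alone, which may be technical.

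Levels were set against each other as CPM per kilobase of merged exons (CPM/kb), averaged over the 24 libraries. The highest was Sfrp5, a secreted Frizzled-related protein, at 11.5 ± 3.65 CPM/kb (SD, n = 24), and the next was Dkk3, a divergent Dickkopf, at 7.22 ± 2.18 CPM/kb. Axin2 followed at 5.65 ± 1.49 CPM/kb. By the longest transcript in place of merged exons, Axin2 was at 7.31 and Dkk3 at 7.22 CPM/kb, so their order depended on the length used. In all, 22 of the 47 genes averaged at least 1 CPM/kb, and 24 had counts in each of the 24 libraries.

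The Frizzled receptors were broadly present, with 8 of 10 at or above 1 CPM/kb. Fzd5 (5.54 ± 1.41), Fzd1 (5.29 ± 1.91), Fzd7 (5.15 ± 1.95), Fzd3 (5.15 ± 1.47) and Fzd6 (5.11 ± 1.72 CPM/kb) had means within 1 SD of each other. That SD takes in the differences among the groups, and the order of these receptors was not tested. Fzd4 averaged 2.97 CPM/kb, Fzd8 2.48, Fzd2 1.96, Fzd9 0.882 and Fzd10 0.0852.

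Of the 19 Wnt ligands, 5 reached 1 CPM/kb. Wnt9a was highest at 4.38 ± 1.28 CPM/kb, with Wnt5b at 3.45 ± 1.33, Wnt10a at 2.72 ± 2.66, Wnt4 at 2.15 ± 1.26 and Wnt5a at 1.01 ± 0.327. The SD of Wnt10a was nearly as large as its mean, and its groups are described below. Of the 19 ligands, 7 did not pass the filter (Wnt10b, Wnt8b, Wnt16, Wnt1, Wnt7a, Wnt8a and Wnt3a), nor did Dkk1, and these 8 genes had 2 to 78 counts each over the 24 libraries.

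Among extracellular modulators, Sfrp4 averaged 2.27 CPM/kb, Sfrp2 1.25 and Sfrp1 0.602, while Wif1 (0.181) and Frzb (0.141 CPM/kb) were low. Rspo4 was the highest R-spondin at 2.24 CPM/kb, with Rspo3 at 0.568, Rspo2 at 0.0841 and Rspo1 at 0.0693. Of the nuclear factors, Tcf7l2 averaged 2.73 CPM/kb, Tcf7l1 2.13, Tcf7 1.01 and Lef1 0.141. By the longest transcript these were 6.44 for Tcf7l2, 2.75 for Tcf7l1, 1.08 for Tcf7 and 0.34 for Lef1. Because the libraries are unstranded, exons shared with genes on the other strand can add counts. Such exons made up 17.8% of Fzd5, 16.1% of Sfrp2, 13.7% of Lef1, 13.1% of Rspo3, 4.6% of Wnt5a and 3.8% of Axin2.

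**Figure D1:**
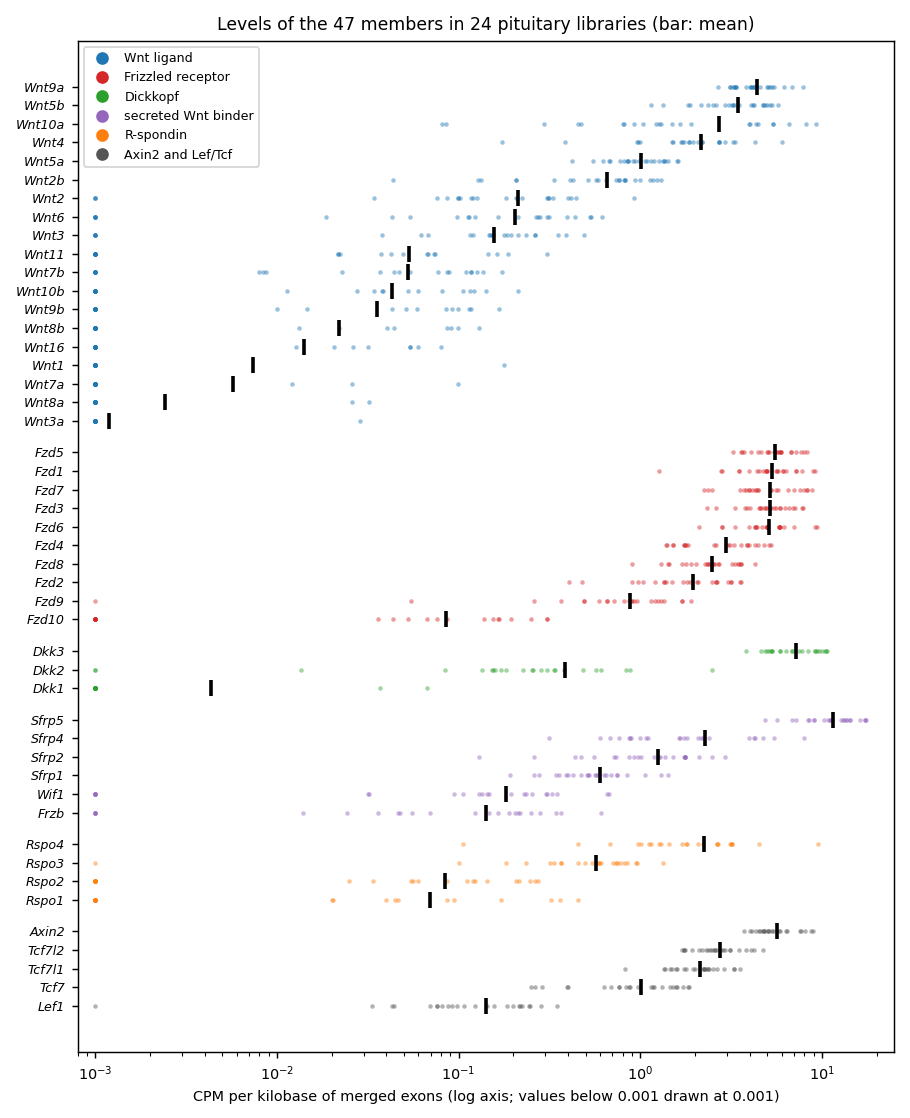
Level of each of the 47 genes in the 24 libraries, as CPM per kilobase of merged exons on a log axis, with genes grouped by role and the mean as a black bar. Sfrp5 had the highest mean, 11.5 CPM/kb, and 8 of 10 Frizzled receptors had means of at least 1 CPM/kb.

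The comparison of the 12 Cre-carrying libraries with the 12 Cre-lacking libraries, averaged over sex and floxed Egr1, called 4 genes higher (Rspo4, Dkk2, Dkk3 and Fzd3) and Wnt10a lower at an edgeR adjusted p under 0.05. Over all 21927 genes tested, 6.89% were called, 2.8% higher and 4.08% lower. Of the 39 genes, 30 had a positive log2 fold change, where 45.7% of all genes tested did. The median of the 39 was 0.42, against -0.03 for all genes tested. In whole-tissue RNA, fewer cells of a type and less RNA per cell cannot be told apart. Of the marker lists, 5 of 6 corticotrope and melanotrope, 5 of 7 posterior lobe, 3 of 6 stem and folliculostellate and 2 of 3 thyrotrope markers were also called higher in this comparison, as was 1 marker each of gonadotropes, endothelium, leukocytes and neurons. Both somatotrope markers and the lactotrope marker Prl were called lower, and of 7 fibroblast markers 2 were higher and 1 lower. Summed stem and folliculostellate markers lay at 129 to 168 CPM in female Egr1cKO, against 105 to 124 CPM in female Egr1cKO control. In males they lay at 225 to 240 CPM in Egr1cKO, against 167 to 177 CPM in Egr1cKO control. The same sum was 160 to 195 CPM in female Cre control, against 115 to 164 CPM in female wild type, with overlap. It was 205 to 225 CPM in male Cre control, against 143 to 167 CPM in male wild type. Summed posterior lobe markers lay at 422 to 578 CPM in female Egr1cKO, against 243 to 267 CPM in female Egr1cKO control. In males they lay at 251 to 307 CPM in Egr1cKO, against 93 to 231 CPM in Egr1cKO control. The same sum was 356 to 409 CPM in female Cre control, against 264 to 322 CPM in female wild type. It was 171 to 311 CPM in male Cre control, against 106 to 173 CPM in male wild type, with overlap. Summed corticotrope and melanotrope markers lay at 83400 to 228000 CPM in female Egr1cKO, against 12000 to 39900 CPM in female Egr1cKO control. In males they lay at 40000 to 114000 CPM, against 7580 to 32000 CPM. Female Cre control had 52400 to 95900 CPM, against 37100 to 41500 CPM in wild type. Male Cre control had 31300 to 48600 CPM, against 9150 to 49100 CPM, with overlap. Prl lay lower without overlap in each Cre-carrying group. It had 20800 to 49000 CPM in female Egr1cKO, against 81200 to 140000 CPM in control. Male Egr1cKO had 3800 to 7060 CPM, against 15200 to 46800 CPM. Prl had 57800 to 75600 CPM in female Cre control, against 113000 to 151000 CPM in wild type, and 3050 to 4250 CPM in males, against 36700 to 43600 CPM. Summed somatotrope markers were also lower without overlap, except in female Cre control. The part of all these cells in the changes of the Wnt genes was not tested.

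Wnt10a (chr1:74791516-74804179, plus strand, GRCm38) encodes a canonical ligand known from tooth and skin development. It had 0.209, 1.12 and 1.17 CPM in female Egr1cKO, against 2.29, 3.12 and 9.92 CPM in female Egr1cKO control. In males it had 9.77, 3.01 and 3.21 CPM in Egr1cKO, against 22.9, 10.7 and 13.2 CPM in Egr1cKO control. Each knockout library lay below each of its control libraries in both sexes. Wnt10a had 0.2, 3.7 and 1.98 CPM in female Cre control, against 2.56, 10.9 and 2 CPM in female wild type. In males it had 4.1, 4.71 and 0.732 CPM in Cre control, against 13.2, 20.2 and 16.2 CPM in wild type. The female groups overlapped here and the male groups did not. Averaged over the 4 pairs of groups, the log2 fold change was -1.98 (SE 0.426; by edgeR, adjusted p = 0.00579). The 4 separate log2 fold changes lay between -2.63 and -1.37, and none of them passed the threshold by itself. The averaged call held in 24 of 24 fits that left out 1 library, with values between -2.19 and -1.69.

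Rspo4 (chr2:151842927-151874668, plus strand, GRCm38) encodes an R-spondin, known in humans for its need in nail formation. It had 6.23, 7.55 and 22.5 CPM in female Egr1cKO, against 4.01, 0.249 and 3.08 CPM in female Egr1cKO control. In males it had 4.22, 4.26 and 7.54 CPM in Egr1cKO, against 1.62, 2.4 and 2.66 CPM in Egr1cKO control. The groups did not overlap in either sex. Rspo4 had 10.7, 6.3 and 7.47 CPM in female Cre control, against 3.39, 7.4 and 5.22 CPM in female wild type. In males it had 2.3, 4.94 and 6.35 CPM in Cre control, against 3.02, 1.08 and 2.72 CPM in wild type. Both of these pairs overlapped through 1 Cre control library each. The averaged log2 fold change was 1.29 (SE 0.306; by edgeR, adjusted p = 0.0093), and it stayed between 1.09 and 1.42 and called in 24 of 24 fits without 1 library.

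Dkk2 (chr3:132085292-132180304, plus strand, GRCm38) encodes a Dickkopf that binds LRP coreceptors. It had 1.05, 3.08 and 9.21 CPM in female Egr1cKO, against 0.496, 0 and 0 CPM in female Egr1cKO control. In males it had 1.24, 1.26 and 2.25 CPM in Egr1cKO, against 0.949, 1.14 and 0.631 CPM in Egr1cKO control. Each knockout library was above its controls in both sexes, but the level in female Egr1cKO was spread widely and replicate 3 was far the highest. Dkk2 had 1.4, 3.24 and 0.571 CPM in female Cre control, against 0.832, 0.565 and 0.939 CPM in female wild type. In males it had 0.05, 1.8 and 2.12 CPM in Cre control, against 0.679, 0.584 and 0.311 CPM in wild type. Both of these pairs overlapped. The averaged log2 fold change was 1.98 (SE 0.539; by edgeR, adjusted p = 0.0238). Without female Egr1cKO replicate 3 the adjusted p of Dkk2 was 0.0728 (log2 fold change 1.70), without female Cre control replicate 2 it was 0.0557 (1.77), and without female Egr1cKO control replicate 1 the log2 fold change was 3.22 with both remaining libraries of that group at 0 counts.

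Dkk3 and the receptor Fzd3, which acts in planar cell polarity and axon guidance, were more abundant and changed less. Dkk3 lay between 16.3 and 35.4 CPM with a median of 29.4 CPM in the 12 Cre-carrying libraries, against 12.8 to 35.7 CPM with a median of 17.9 CPM in the 12 Cre-lacking libraries (log2 fold change 0.43, SE 0.12, edgeR adjusted p = 0.0272). Fzd3 lay between 58.1 and 101 CPM with a median of 73.1 CPM in Cre-carrying libraries, against 29.7 to 99.8 CPM with a median of 54.3 CPM in Cre-lacking libraries (log2 fold change 0.43, SE 0.129, edgeR adjusted p = 0.0418). For both genes the ranges overlapped broadly, and the highest Cre-lacking library was female wild type replicate 3.

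The Dkk3 call was lost without any 1 of 8 libraries, with an edgeR adjusted p of up to 0.0633: female Egr1cKO replicate 3, female Egr1cKO control replicate 2, female Cre control replicate 2, male Egr1cKO replicate 1, male Egr1cKO control replicates 1 and 3, male Cre control replicate 1 and male wild type replicate 3. The Fzd3 call was kept only without female Egr1cKO control replicate 3, female Cre control replicate 2, any female wild type library, male Egr1cKO replicate 3, male Egr1cKO control replicate 2 or male wild type replicate 1. It was lost without each of the other 16 libraries, with an adjusted p of up to 0.0847. Over all left-out libraries the log2 fold change stayed between 0.38 and 0.51 for Dkk3 and between 0.35 and 0.52 for Fzd3.

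**Figure D2:**
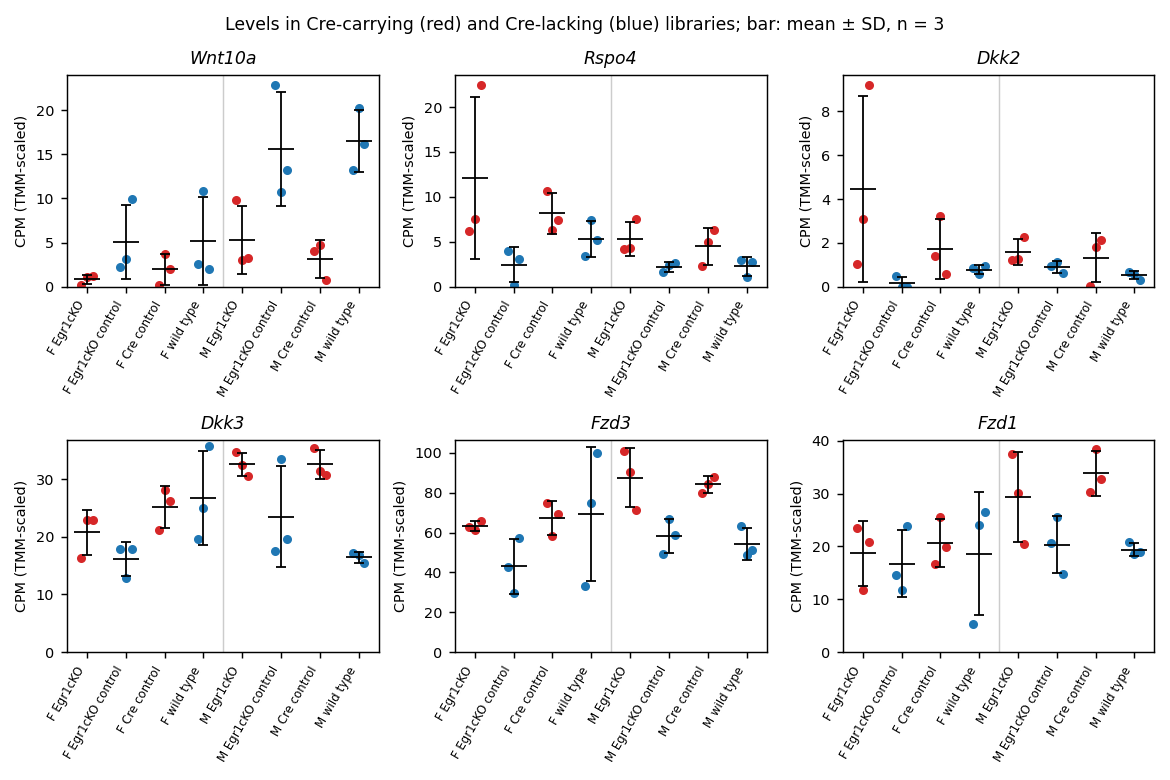
Levels in CPM of Wnt10a, Rspo4, Dkk2, Dkk3, Fzd3 and Fzd1 in each library, with Cre-carrying groups in red left of their Cre-lacking groups in blue and bars for mean ± SD of 3. Wnt10a was lower in Egr1cKO than in its control without overlap in both sexes, and Dkk2 in female Egr1cKO was spread from 1.05 to 9.21 CPM.

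In males, the Cre effect by itself (Cre control against wild type) called none of the 39 genes with edgeR, where 0.233% of all genes were called. DESeq2, whose calls over all genes are not given here, called 1 of the 39. At an unadjusted p under 0.05 there were 10 of 39 genes (25.6%), against 10.8% of all genes tested. All 10 Frizzled genes had positive values, where 51% of all genes did, with a median log2 fold change of 0.65. The median over the 39 genes was 0.76, against 0.01 for all genes. In 11 of 39 genes each male Cre control library lay above each male wild type library, where 11.1% of all genes did: Fzd1, Fzd2, Fzd3, Fzd7, Fzd10, Wnt5a, Wnt5b, Wnt9a, Dkk3, Rspo2 and Rspo3. Wnt10a and Tcf7l2 lay below without overlap, where 10.5% of all genes did.

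Fzd7 had 37.6, 37.2 and 36 CPM in male Cre control, against 17.9, 18.7 and 23.8 CPM in male wild type (log2 fold change 0.88, SE 0.258, edgeR adjusted p = 0.183). Dkk3, the nearest to the threshold, had 35.4, 31.5 and 30.8 CPM in male Cre control, against 17.2, 16.8 and 15.4 CPM in male wild type (0.98, SE 0.241, edgeR adjusted p = 0.0772). Wnt5a, a ligand of the non-canonical branch, had 5.3, 10.5 and 9.86 CPM in male Cre control, against 4.88, 3.28 and 4.28 CPM in male wild type (1.05, SE 0.333, edgeR adjusted p = 0.233). The Fzd7 and Dkk3 groups were well apart, and the Wnt5a groups were separated by less than 1 CPM. Rspo2 had 1.35, 0.728 and 0.616 CPM in male Cre control, 62 counts in all, against 0 counts in male wild type, at least 18.4-fold higher when set against a floor of 3 counts over the group. Its adjusted p was 0.205 with edgeR.

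In females, the Cre effect called 1 of 39 genes, Tcf7l2, where 1.21% of all genes were called. Tcf7l2 (chr19:55741820-55933654, plus strand, GRCm38) encodes a transcription factor that binds beta-catenin. It had 33.3, 36.8 and 41.6 CPM in female Cre control, against 27.2, 15.3 and 15.2 CPM in female wild type. Each Cre control library was above each wild type library, and the wild type library at 27.2 CPM was replicate 1, the one with the high mitochondrial share. Its log2 fold change there was 0.96 (SE 0.221; by edgeR, adjusted p = 0.0318). Without female wild type replicate 1 it was 1.29 (adjusted p = 0.000182). Leaving out any other library of these groups ended the call, with log2 fold changes between 0.80 and 1.02 and an adjusted p of up to 0.177, as did a fit to these 6 libraries alone (0.95, adjusted p = 0.404).

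Without female wild type replicate 1, Fzd4 was also called lower in female Cre control (log2 fold change -1.20, edgeR adjusted p = 0.0191), and 3603 genes were called in place of 265. The number of genes called in the female Cre effect therefore moved with that library. In female libraries only Tcf7l2 and Wnt3 lay higher without overlap and Sfrp5 lower, where 8.02% and 6.83% of all genes did.

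The Egr1cKO effect (Egr1cKO against Egr1cKO control) called 1 of 39 genes in females, Dkk2, where 2.21% of all genes were called, and none in males, where 0.041% were. The female log2 fold change of Dkk2, from the libraries given above, was 4.61 (SE 1.21; by edgeR, adjusted p = 0.0414). Without female Egr1cKO replicate 3 it was 3.51 (adjusted p = 0.21), without Egr1cKO replicate 2 it was 4.81 (0.0508), without control replicate 2 it was 4.11 (0.148) and without control replicate 3 it was 4.04 (0.123). Without control replicate 1 the remaining controls were at 0 counts, and the fitted value of 9.58 then depends on the prior count. With the mitochondrial share added to the fit the adjusted p of Dkk2 was 0.0525, and with these 6 libraries alone it was 0.0782. The log2 fold change of Rspo4 in females was 2.28 (SE 0.627), with an edgeR adjusted p of 0.0515, just outside the threshold.

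In females, 5 of 39 genes lay higher without overlap in Egr1cKO (Rspo4, Dkk2, Fzd2, Fzd3 and Tcf7l2) and Wnt10a and Wnt3 lower, where 9.57% and 11.9% of all genes did. Fzd3 had 62.9, 61.1 and 65.9 CPM in female Egr1cKO, against 42.5, 29.7 and 57.3 CPM in female Egr1cKO control (log2 fold change 0.55, SE 0.26, edgeR adjusted p = 0.245). Wnt4, a ligand of pituitary development, had 25.3, 13.6 and 9.21 CPM in female Egr1cKO, against 11.4, 1.62 and 4.06 CPM in female Egr1cKO control (1.48, SE 0.672, edgeR adjusted p = 0.231). The Fzd3 groups were separate and the Wnt4 groups overlapped. Rspo1 was detected in female Egr1cKO with 30 counts and in its control with 0, at least 10.4-fold higher against a floor of 3 counts over the group (edgeR adjusted p = 0.175).

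Male Egr1cKO gave 2 of 39 genes at an unadjusted p under 0.05 with edgeR (Fzd3 and Fzd8), against 6.57% of all genes. None was called at an adjusted p under 0.05, and none with DESeq2. Of the 39 genes, 31 had positive values, where 52.6% of all genes did. The median log2 fold change of the 39 was 0.35, against 0.03 for all genes tested. Fzd3 had 101, 90.4 and 71.5 CPM in male Egr1cKO, against 49.4, 66.6 and 58.8 CPM in male Egr1cKO control (log2 fold change 0.59, SE 0.259, edgeR adjusted p = 0.712). Its groups did not overlap. In 8 of 39 genes each male Egr1cKO library lay above its controls, where 10.8% of all genes did: Rspo4, Sfrp2, Dkk2, Fzd3, Fzd8, Fzd9, Wnt2 and Wnt5a. Wnt10a lay below, where 10.2% of all genes did.

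The Egr1cKO effect beyond the Cre effect, the difference of the 2 effects within a sex, called none of the 39 genes with edgeR or DESeq2 in either sex, where 0.00456% of all genes were called in females and 0% in males. At an unadjusted p under 0.05 there were 5 of 39 genes in females (12.8%), against 9.81% of all genes. In males there was 1 (2.56%), against 1.06% of all genes. For Dkk2 in females the difference was 3.46 (SE 1.53; by edgeR, adjusted p = 0.469), and for Wnt10a it was -1.26 (SE 1.21, adjusted p = 0.784). Without female wild type replicate 1, Fzd2 (1.84, edgeR adjusted p = 0.0444) and Fzd3 (0.93, adjusted p = 0.0417) were called. Over the fits that left out 1 library, the female difference called 1 to 1282 genes in the whole table. Floxed against unfloxed Egr1, averaged over sex and Cre, called none of the 39 genes with edgeR or DESeq2 and 0% of all genes. In that comparison 1 of 39 genes (Fzd7, -0.27) was at an unadjusted p under 0.05, against 6.4% of all genes.

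Across the 4 comparisons of Cre-carrying with Cre-lacking groups, which share no libraries, 9 of 39 genes had a positive log2 fold change in 4 of 4: Wnt4, Wnt5a, Fzd1, Fzd8, Fzd9, Dkk2, Rspo3, Rspo4 and Sfrp1. Wnt10a was negative in 4 of 4, the only one of the 39. Of all genes tested, 46.2% to 52.6% had a positive value in each of these comparisons. How many of all genes kept 1 sign in 4 of 4 was not counted, so the 9 and the 1 have no background beside them.

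**Figure D3:**
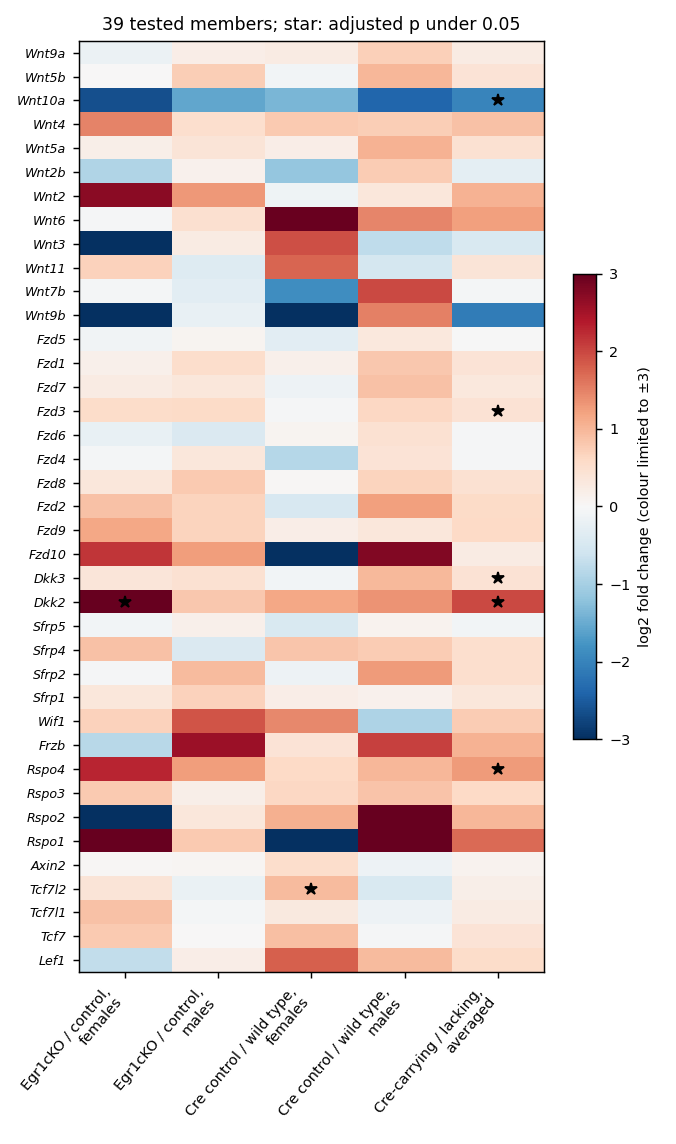
Fitted log2 fold changes of the 39 tested genes by role in the Egr1cKO effect and the Cre effect of each sex and in their average, with red higher and blue lower in Cre-carrying libraries and a star at an edgeR adjusted p under 0.05. The 10 Frizzled genes were all positive in the male Cre effect, and Wnt10a was negative in each column. Fitted values of genes with a group at 0 counts depend on the prior count.

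Females differed from males, averaged over the 4 genotypes, in 10 of 39 genes, where 21.7% of all genes were called. Calls between the sexes were thus not particular to the Wnt genes. Higher in females were Axin2, Tcf7l2, Rspo4 and Wnt5a, and lower were Sfrp5, Fzd4, Fzd5, Fzd7, Wnt9a and Wnt10a. Of the 10 Frizzled genes, 3 were called lower and 9 had negative values. Of all genes tested, 11.7% were called lower and 44.6% had positive values. The median log2 fold change of the 39 genes was -0.31, against -0.06 for all genes tested.

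Sfrp5 (chr19:42197971-42202252, minus strand, GRCm38) had 16.1, 13.6 and 10.7 CPM in female Egr1cKO, against 33.2, 32.8 and 25.1 CPM in male Egr1cKO. In Egr1cKO controls it had 12.9, 9.16 and 20.9 CPM in females, against 25.7, 32.6 and 24.2 CPM in males. In Cre controls it had 15.8, 17.1 and 17.2 CPM in females, against 30.7, 26.2 and 21.1 CPM in males. Females lay below males without overlap in each of these genotypes. In wild types the sexes overlapped, with 19.5, 21.6 and 27.2 CPM in females, against 20.6, 24.8 and 27 CPM in males. The averaged log2 fold change was -0.71 (SE 0.124; by edgeR, adjusted p = 0.000291).

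Fzd7 (chr1:59482424-59486955, plus strand, GRCm38) was also lower in females outside wild types. It had 10.7, 17.2 and 18 CPM in female Egr1cKO, against 39.8, 34.2 and 23.6 CPM in male Egr1cKO. In Egr1cKO controls it had 10.2, 11.3 and 16.8 CPM in females, against 25.9, 31.6 and 20.1 CPM in males. These groups did not overlap, nor did those of Cre controls. In wild types Fzd7 had 19.6, 19.4 and 29.4 CPM in females, against 17.9, 18.7 and 23.8 CPM in males, and the sexes overlapped. The averaged log2 fold change was -0.69 (SE 0.129; by edgeR, adjusted p = 0.000539).

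Fzd5 averaged 31.5 ± 6.43 CPM in females and 45.1 ± 7.38 CPM in males (SD, n = 12 each; log2 fold change -0.52, SE 0.109, edgeR adjusted p = 0.00167). Fzd4, a receptor for Wnts and Norrin in blood vessels of the eye, averaged 14.8 ± 6.07 CPM in females and 25.2 ± 7.41 CPM in males (-0.79, SE 0.185, edgeR adjusted p = 0.00415). Wnt10a averaged 3.26 ± 3.51 CPM in females and 10.2 ± 7.21 CPM in males (-1.66, SE 0.423, edgeR adjusted p = 0.0086). For these genes the ranges of the sexes overlapped over the 24 libraries.

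Markers of several cell types moved with sex in the same comparison. Called lower in females were 3 of 5 endothelial, 3 of 4 gonadotrope, 2 of 3 thyrotrope, 2 of 5 red blood cell, 1 of 2 somatotrope, 1 of 6 stem and folliculostellate and 1 of 5 mural markers. Called higher were 6 of 7 posterior lobe, 3 of 6 corticotrope and melanotrope, 2 of 5 leukocyte, 1 of 7 fibroblast and 1 of 4 neuron markers and the lactotrope marker Prl. Summed endothelial markers lay at 108 to 172 CPM in female groups and 140 to 258 CPM in male groups. Summed posterior lobe markers lay at 243 to 578 CPM in female groups and 93 to 311 CPM in male groups. The part of these cell types in the sex differences of the Wnt genes was not tested.

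Axin2 lay between 24.9 and 48.8 CPM with a median of 33.8 CPM in females, against 20.5 to 42.1 CPM with a median of 26.2 CPM in males (log2 fold change 0.40, SE 0.114, edgeR adjusted p = 0.0139). Tcf7l2 lay between 15.2 and 41.6 CPM with a median of 26.5 CPM in females, against 14.9 to 27.4 CPM with a median of 20.6 CPM in males (0.41, SE 0.11, edgeR adjusted p = 0.00933). All 3 female Cre control libraries of Tcf7l2 lay above each male library. Wnt5a averaged 9.17 ± 2.29 CPM in females and 6.68 ± 2.26 CPM in males (SD, n = 12 each; 0.51, SE 0.164, edgeR adjusted p = 0.0281). Wnt9a averaged 12.7 ± 3.32 CPM in females and 16.5 ± 4.32 CPM in males (-0.37, SE 0.131, edgeR adjusted p = 0.0462). Rspo4 averaged 7.01 ± 5.58 CPM in females and 3.59 ± 1.93 CPM in males (0.85, SE 0.304, edgeR adjusted p = 0.0462), the spread in females coming mostly from the 22.5 CPM of Egr1cKO replicate 3.

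The calls of Axin2, Tcf7l2, Fzd4, Fzd5, Fzd7, Wnt10a and Sfrp5 held in 24 of 24 fits without 1 library. The Rspo4 call was kept only without female Egr1cKO replicates 1 or 2, female Egr1cKO control replicate 2, female wild type replicate 1, male Egr1cKO replicate 3 or male Cre control replicate 3, and otherwise had an edgeR adjusted p of up to 0.122. Wnt9a kept its call only without female Egr1cKO control replicate 3, female Cre control replicate 2, female wild type replicates 2 or 3, male Egr1cKO replicate 3, male Cre control replicate 2 or male wild type replicate 2, and otherwise had an adjusted p of up to 0.1. Wnt5a was no longer called without female Egr1cKO replicate 3, female Egr1cKO control replicate 3, female Cre control replicate 1, female wild type replicate 3, male Egr1cKO replicates 1 or 3, male Egr1cKO control replicate 1, male Cre control replicate 1 or male wild type replicate 2, with an adjusted p of up to 0.0673.

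**Figure D4:**
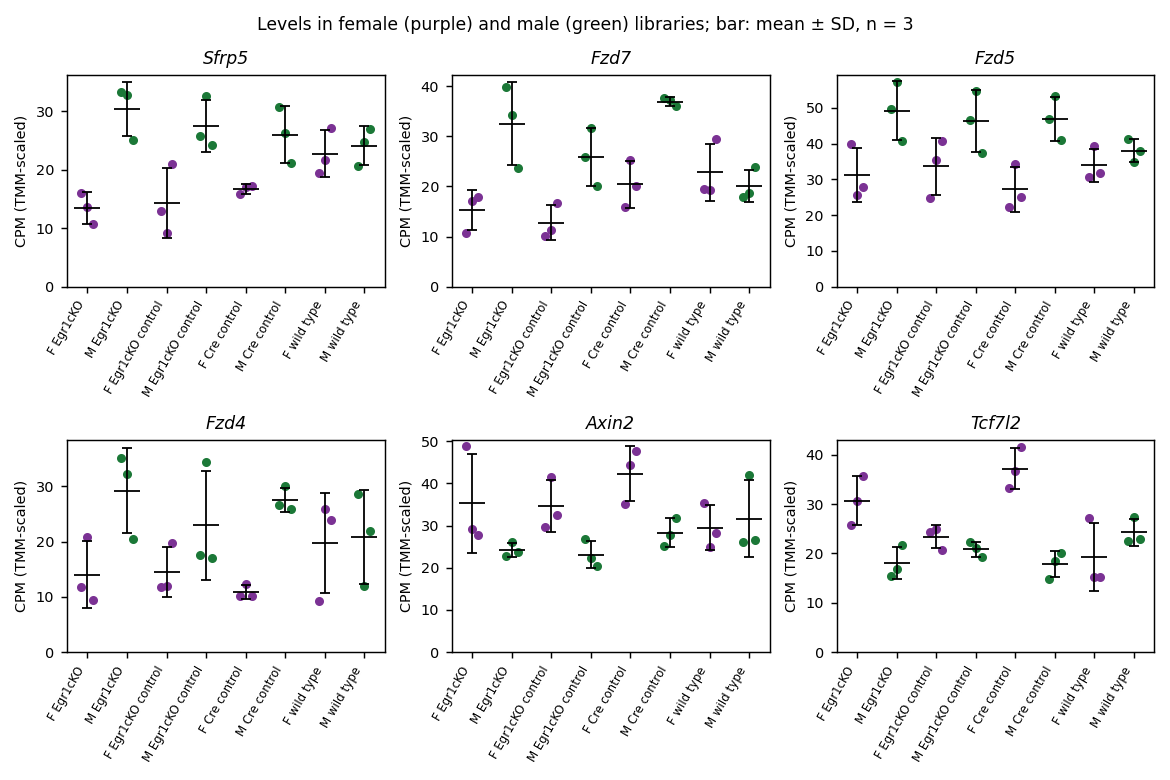
Levels in CPM of Sfrp5, Fzd7, Fzd5, Fzd4, Axin2 and Tcf7l2 in each library, with females in purple left of males in green for each genotype and bars for mean ± SD of 3. Sfrp5 and Fzd7 were lower in females without overlap in 3 of 4 genotypes and overlapped in wild types.

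The mitochondrial share of counts moved with sex. With that share as a covariate, none of the 39 genes was called between the sexes, and 596 genes were called over the whole table in place of 4761. The log2 fold change was then -0.49 for Sfrp5 (edgeR adjusted p = 0.122), -0.55 for Fzd7 (0.105), -0.41 for Fzd5 (0.162), -0.22 for Fzd4 (0.716), 0.19 for Axin2 (0.627) and 0.05 for Tcf7l2 (0.933). The direction of all 10 genes was the same with the covariate. Libraries with a share under 5% were found in both sexes only in Egr1cKO control and wild type, with 2 of 3 females and 3 of 3 males in each. In these 10 libraries the value was -0.35 for Sfrp5 (edgeR adjusted p = 0.358), -0.34 for Fzd7 (0.443), 0.84 for Wnt5a (0.0851) and -0.29 for Tcf7l2 (0.407), the last against its averaged direction. All 12 libraries of the same genotypes gave -0.51 for Sfrp5 (edgeR adjusted p = 0.176), -0.42 for Fzd7 (0.332) and -0.09 for Tcf7l2 (0.893), so none of the 10 genes was called in these genotypes with or without the libraries of high share.

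**Figure D5:**
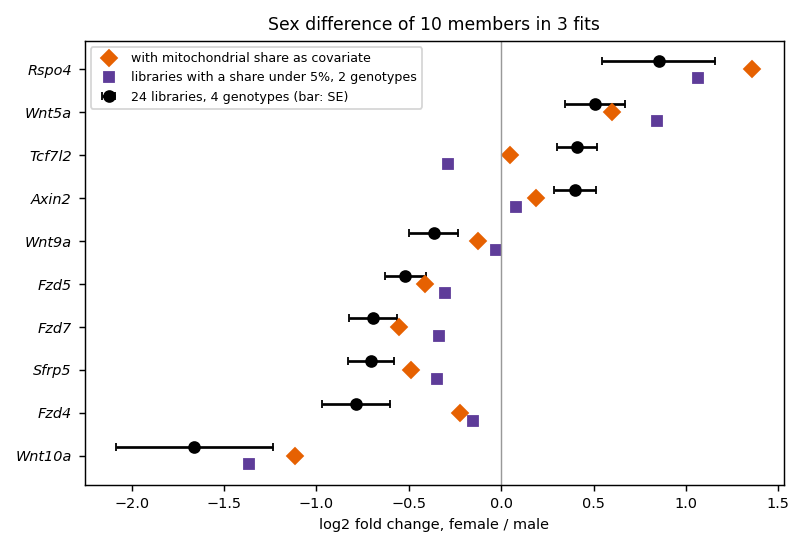
Log2 fold change of females against males for the 10 genes called on average over the 4 genotypes, in the fit to 24 libraries (black, bar for SE), with the mitochondrial share as a covariate (orange) and in the 10 libraries with a share under 5% of Egr1cKO control and wild type (purple). Tcf7l2 changed sign in the last fit, at -0.29, and the other 9 genes kept their direction.

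Within genotypes, the sexes differed in 5 of 39 genes in Egr1cKO, near the share over all genes, of which 13.1% were called (5.49% higher and 7.57% lower in females). In Cre control they differed in 3 of 39, where 3.61% of all genes were called (1.6% higher and 2.01% lower). In Egr1cKO, 13 of 39 genes lay lower in females without overlap and 2 higher, where 23.5% and 14.9% of all genes did. In Cre control 11 lay lower and 2 higher, where 18% and 15% did. In Egr1cKO, Tcf7l2 was higher in females (log2 fold change 0.76, edgeR adjusted p = 0.026) and Sfrp5 (-1.17, 0.005), Fzd7 (-1.09, 0.00973), Fzd5 (-0.66, 0.0455) and Rspo2 were lower. Rspo2 had 0 counts in female Egr1cKO, against 56 counts in male Egr1cKO, at least 17.6-fold lower against a floor of 3 counts over the group (edgeR adjusted p = 0.0344). The Sfrp5 call held without each library of these groups. The Fzd7 call was lost without female Egr1cKO replicate 1 or male Egr1cKO replicate 1 (adjusted p up to 0.0802). The Tcf7l2 and Fzd5 calls were lost without female replicates 2 or 3 or male replicates 1 or 2 (up to 0.135 for Tcf7l2 and 0.192 for Fzd5), and Rspo2 was called only without male replicate 3 (up to 0.1 otherwise).

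In Cre control, Tcf7l2 had 33.3, 36.8 and 41.6 CPM in females, against 14.9, 18.4 and 20.1 CPM in males (log2 fold change 1.06, SE 0.221, edgeR adjusted p = 0.00903). Fzd4 had 10.2, 12.3 and 10.1 CPM in females, against 26.7, 30 and 25.9 CPM in males (-1.34, SE 0.374, edgeR adjusted p = 0.0451). Fzd5 had 22.3, 34.3 and 25 CPM in females, against 46.8, 53.2 and 40.9 CPM in males (-0.79, SE 0.218, edgeR adjusted p = 0.0424). None of these 3 genes overlapped between the sexes. The Tcf7l2 call was lost without female replicate 3 or male replicate 2 (adjusted p up to 0.0548), Fzd5 was called only without female replicate 2 (up to 0.189 otherwise), and Fzd4 was lost without any 1 of the 6 libraries (up to 0.156). With the mitochondrial share as a covariate none of the 39 genes was called in either genotype: Tcf7l2 was then at 0.68 in Cre control (0.138) and 0.12 in Egr1cKO (0.895).

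In Egr1cKO control and in wild type none of the 39 genes was called between the sexes with edgeR, where 0.451% and 0.283% of all genes were called. There were 7 and 4 of 39 genes at an unadjusted p under 0.05 (17.9% and 10.3%), against 13.8% and 7.03% of all genes. DESeq2, whose calls over all genes are not given here, called 2 of the 39 in Egr1cKO control and none in wild type. Without overlap, 4 of 39 genes lay lower and 3 higher in Egr1cKO control females (14.1% and 10.9% of all genes), and 3 lower and 4 higher in wild type females (5.49% and 4.62%). Nearest in Egr1cKO control were Fzd7 (-1.01, edgeR adjusted p = 0.0788) and Sfrp5 (-0.94, adjusted p = 0.094). In wild type, Wnt5a had 8.56, 6.03 and 10.4 CPM in females, against 4.88, 3.28 and 4.28 CPM in males (1.01, SE 0.334, edgeR adjusted p = 0.334), without overlap. Without female wild type replicate 1, Dkk3 (0.88, adjusted p = 0.0314) and Fzd3 (0.69, adjusted p = 0.0459) were called higher in wild type females. Dkk3 had 19.6, 25 and 35.7 CPM in wild type females with that library included, against 17.2, 16.8 and 15.4 CPM in males. Over the fits that left out 1 library, 25 to 1024 genes of the whole table were called between the sexes in wild type.

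Whether the Cre effect differed between females and males was tested by an interaction, which called none of the 39 genes with edgeR, where 0.128% of all genes were called. There were 9 of 39 genes at an unadjusted p under 0.05 with edgeR, against 18% of all genes. DESeq2, whose calls over all genes are not given here, called 2 of the 39. Tcf7l2 had the smallest p, with a log2 difference of 1.41 (SE 0.312; by edgeR, adjusted p = 0.0515), the female Cre effect being 0.96 and the male one -0.45. Values of all 10 Frizzled genes were negative, with a median of -0.67 against -0.05 for all genes tested, of which 47.8% had positive values. Fzd7 differed by -1.03 (SE 0.364; by edgeR, adjusted p = 0.138), Dkk3 by -1.07 (SE 0.339, adjusted p = 0.11) and Fzd4 by -1.27 (SE 0.522, adjusted p = 0.201).

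The number of interaction calls changed with female wild type replicate 1. Without it the values named above were larger, 8 of 39 genes were called and 4339 genes were called in the whole table in place of 28. Tcf7l2 was then at 1.73 (edgeR adjusted p = 0.000121), Dkk3 at -1.25 (0.0062), Fzd3 at -1.01 (0.00871), Fzd7 at -1.13 (0.0254), Fzd4 at -1.61 (0.0166), Fzd2 at -2.19 (0.00501) and Fzd1 at -1.10 (0.047), and Fzd10, at 0 counts in female Cre control, was called lower. In that library Fzd1 had 5.29 CPM, against 24.1 and 26.5 CPM in the other wild type females, and Fzd3 had 33.4 CPM, against 74.9 and 99.8 CPM. Both genes were lowest there among the wild type females. The interaction of sex and Egr1cKO called none of the 39 genes with edgeR or DESeq2, where 0.0228% of all genes were called. Dkk2 and Rspo2 were at an unadjusted p under 0.05 there (5.13% of the 39), against 8.44% of all genes.

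Other genes of the pathway were taken from a list of 58 receptors, coreceptors, cytoplasmic components and targets, of which 56 were tested. Averaged over sex and floxed Egr1, Cre-carrying libraries had 4 of 56 higher and 3 lower, where 2.8% and 4.08% of all genes were called. The smallest p-values were those of the R-spondin receptor Lgr6 (log2 fold change 0.81, edgeR adjusted p = 0.000471), the glypican Gpc3 (0.89, 0.000664), the corepressor Tle3 (0.54, 0.00115) and, lower, the glypican Gpc4 (-0.68, 0.00202). The median log2 fold change over the 56 genes was 0.003. In females the Egr1cKO effect called 2 of the 56 genes, where 2.21% of all genes were called, with Tle3 higher (0.87, edgeR adjusted p = 0.0228) and the Wnt5a receptor Ror2 lower (-1.53, 0.0455). The female Cre effect also called 2, where 1.21% of all genes were called, with the target Myc higher (1.29, 0.0228) and Prickle2 lower (-1.81, 0.0318).

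Between the sexes, averaged over genotypes, 6 of the 56 genes were called higher in females and 15 lower, against 9.99% and 11.7% of all genes. The smallest p-values were those of Myc, higher in females (log2 fold change 1.26, edgeR adjusted p = 1.03e-06), and of Vangl1, a planar polarity protein (-0.99, 1.68e-05), Gpc4 (-0.97, 1.9e-05) and Ror2 (-1.20, 0.000167), all lower. In Egr1cKO 4 of the 56 genes were called higher in females and 12 lower, where 5.49% and 7.57% of all genes were. In Cre control 1 was higher, Myc, and 5 were lower, where 1.6% and 2.01% were. Wls, which carries Wnt proteins to the cell surface, was called lower in female Egr1cKO (-1.31, edgeR adjusted p = 0.000682) and in female Cre control (-1.09, 0.00676), and no gene of this list was called between the sexes in Egr1cKO control or wild type.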

How the data were processed

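The authors deposited raw read counts, whole numbers per gene with no normalization, for 24 mouse pituitary libraries. The submitters' processing notes name Trim Galore 3.8.2, FastQC, STAR 2.7.9 and the GRCm38 build. Per the labels' protocols, RNA was extracted with a column kit and libraries were non-stranded. How reads were counted, and on which annotation, the sources used here do not say.

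The tests used edgeR 4.0.16 in R 4.3.3 (filterByExpr, TMM scaling, a mean for each of 8 groups, 16 residual degrees of freedom, robust quasi-likelihood test, 15 comparisons). Each adjusted p is a Benjamini-Hochberg value over 21927 genes at a threshold of 0.05, with a prior count of 0.125 behind each fold change. The SE is the absolute log2 fold change divided by the square root of F. CPM values used TMM-scaled totals, and gene lengths came from GENCODE M21. Alternatives were DESeq2 1.42.0, its size factors, no filter, the mitochondrial share as a covariate, fits to the compared groups alone and leaving out each library. The procedure was tested on simulated counts that held no differences in mitochondrial share, so the effect of that share was not tested there. The rule for named genes took each gene called in any comparison, the 3 highest per role by level per length, genes at an unadjusted p under 0.001, up to 3 with the smallest p where none was called, and up to 4 called genes of the pathway list. Genes named for other reasons, such as groups that did not overlap, were chosen after their values were seen. The 47 genes and the lists were chosen with earlier results of these data known. Floors of 3 counts cover counting error only.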

Additional observations from a re-analysis of the deposited data

How the results depend on the processing

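With DESeq2 size factors in edgeR, the Egr1cKO effect in females called 2 of the 39 genes in place of 1. Without a filter on low counts it called 4, the male Egr1cKO effect 1, the Cre effect 3 in females and 3 in males, the averaged Cre comparison 8, the interaction of sex and Cre 2, and the sex difference 3 in Egr1cKO control and 1 in wild type. Adding the mitochondrial share as a covariate gave 5 calls for the Egr1cKO effect in females, 5 for its excess over the Cre effect, 1 for the male Cre effect, 10 for the averaged Cre comparison, 1 for the interaction of sex and Cre, and for the sex difference 0 in Egr1cKO, 0 in Cre control and 0 on average. Fits to the compared groups alone called 0 for the Egr1cKO effect and 0 for the Cre effect in females, 1 for the male Cre effect, and for the sex difference 1 in Egr1cKO control and 7 in Cre control. DESeq2 called 2 for the Egr1cKO effect in females, 1 for the male Cre effect, 2 for the interaction of sex and Cre and 2 for the sex difference in Egr1cKO control. Chosen after seeing the data, the averaged sex difference in Egr1cKO control and wild type called 0, with all their libraries or with those under 5% mitochondrial share, and Tcf7l2 turned to -0.09 and -0.29 there. The Fzd5 sex difference in Egr1cKO was also lost with DESeq2 size factors in edgeR and in the fit to its own groups, the averaged Wnt9a sex difference with those size factors and without a filter, and the averaged Wnt5a sex difference without a filter. These counts, but for the averaged sex difference with the covariate given above, stand without the calls over all genes at the same setting. They therefore do not show a change particular to the Wnt genes. The cause was not tested.

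Leaving out 1 library gave 0 to 2 calls for the Egr1cKO effect in females, 0 to 2 for the Cre effect in females, 2 to 5 for the averaged Cre comparison, 0 to 2 for the female Egr1cKO effect beyond Cre and 0 to 8 for the interaction of sex and Cre. The sex difference gave 1 to 6 in Egr1cKO, 0 to 2 in Egr1cKO control, 0 to 2 in Cre control, 0 to 2 in wild type and 7 to 10 on average. The other comparisons gave 0 throughout. Over all genes, these fits called 142 to 581 for the Egr1cKO effect and 29 to 3603 for the Cre effect in females. They called 1096 to 1885 for the averaged Cre comparison and 1 to 4339 for the interaction of sex and Cre. The female Egr1cKO effect beyond Cre gave 1 to 1282. Between the sexes they called 548 to 2794 in Egr1cKO and 154 to 974 in Cre control. The ranges were 29 to 232 in Egr1cKO control, 25 to 1024 in wild type and 3729 to 5495 on average. Of the 25 calls, 10 were kept in each fit without 1 library, and 5, those of the averaged Cre comparison, under each other setting run for them. The count of 22 genes at 1 CPM/kb or more was the same on unscaled totals and with the longest transcript as gene length. The order of genes moved with the length used. No paired analysis was possible because the groups share no replicate numbers in the titles. Depth limits the 8 untested genes and the low genes Rspo1, Rspo2, Fzd10 and Wnt9b, whose groups at 0 counts give bounds only.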
